A study of Homo sapiens with 6 samples.

Results

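The mRNA levels of the RAF-MEK-ERK cascade components were followed across all 6 arrays of the series. The cascade was represented by 7 listed genes, NRAS, BRAF, ARAF, MAP2K1, MAP2K2, MAPK3 and MAP3K8, chosen by name. Of these, 5 had a probe set that named the gene alone, out of 19676 genes measured in this way, and 4 of the 5 reached the floor of log2 6 on at least 1 array. NRAS and BRAF were not analysed here, because no probe set carried either name in the annotation used. The arrays, of the Affymetrix type and 1 per condition, profiled A375, an established human melanoma cell line in which BRAF is mutated. At 6 h the cells had received 10 µM vemurafenib, 100 nM AT9283, vemurafenib and AT9283 together at these doses (the combination), or the solvent DMSO. At 16 h they had received 10 µM vemurafenib or DMSO. All conditions shared the same line, which is a single tumour-derived culture, and the labels name no separate cultures within a condition. No difference between conditions therefore has a replicate check, and precision is limited by how few arrays there are.

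In this cascade, RAS GTPases such as NRAS recruit RAF kinases (ARAF, BRAF) to the membrane. RAF kinases phosphorylate the MEK kinases encoded by MAP2K1 and MAP2K2, and MEK in turn phosphorylates the ERK kinases, of which MAPK3 encodes ERK1. MAP3K8 encodes the kinase COT, also called TPL2, which can phosphorylate MEK without RAF. In melanoma with mutant BRAF the pathway is switched on at the level of RAF. Vemurafenib inhibits the mutant kinase. AT9283 is an inhibitor of Aurora kinases, JAK2 and further kinases.

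Upstream sequences are shown for MAP2K1, MAP2K2 and MAPK3, since MAP2K1 had the lowest and MAPK3 and MAP2K2 the highest vemurafenib differences at 16 h among the cascade genes. Each is the 250 bases before the first listed start site, from RefSeq (GRCh38.p14), written 5′ to 3′ on the strand of the gene. MAP2K1 lies on the plus strand (chr15:66386662-66386911), MAP2K2 on the minus strand (chr19:4124123-4124372) and MAPK3 on the minus strand (chr16:30123221-30123470). Capitals mark matches to 1 of 4 motifs searched on both strands, TGANTCA for AP-1, TGACGTCA for the CRE, CACGTG for the E-box and CCGGAAGT for ETS factors, none of which contains another.
MAP2K1: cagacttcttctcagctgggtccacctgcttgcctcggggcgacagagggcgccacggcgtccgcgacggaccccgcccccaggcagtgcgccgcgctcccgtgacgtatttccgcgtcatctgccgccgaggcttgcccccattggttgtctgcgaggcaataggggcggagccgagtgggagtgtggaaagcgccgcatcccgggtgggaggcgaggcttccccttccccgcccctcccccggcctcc
MAP2K2: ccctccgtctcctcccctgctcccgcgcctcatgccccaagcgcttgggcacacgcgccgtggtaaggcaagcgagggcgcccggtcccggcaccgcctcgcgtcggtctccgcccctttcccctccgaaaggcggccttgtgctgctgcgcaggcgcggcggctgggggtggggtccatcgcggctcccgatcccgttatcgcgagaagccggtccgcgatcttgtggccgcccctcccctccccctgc
MAPK3: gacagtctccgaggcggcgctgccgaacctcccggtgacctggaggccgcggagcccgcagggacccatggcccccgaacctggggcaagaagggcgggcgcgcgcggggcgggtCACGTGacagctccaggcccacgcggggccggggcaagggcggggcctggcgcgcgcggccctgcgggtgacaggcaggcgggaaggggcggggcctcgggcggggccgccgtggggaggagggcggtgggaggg
The only match among the 3 sequences was an E-box in MAPK3, from base -135 to base -130 before the start site. An E-box was present in 6.34% of the 35116 upstream sequences of the same length, AP-1 in 6.57%, ETS in 3.42% and the CRE in 1.65%. The G and C content was 71.2% for MAP2K1, 74.0% for MAP2K2 and 80.4% for MAPK3, against a median of 58.0% over all upstream sequences. A match is a description of the letters in this window and not a binding site.

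The arrays were similar in overall brightness. The median intensity lay between 19.79 and 21.29, and between 44.7% and 46.1% of genes were at the floor or above, an intensity of 64. Differences are given on the log2 scale as the first condition minus the second. A gene is said to have risen or fallen where it passed the size rule, meaning that the arrays differed by 1 or more (2-fold) and the higher one reached the floor. A looser rule used 0.5 (1.41-fold), and neither rule is a test. Between the DMSO arrays, which differ only in time by their labels, differences had an SD of 0.24 over 9055 genes at the floor. Of the melanocyte markers, SOX10, MITF and PAX3 (3 of 9 measured) were at the floor on all arrays, whereas PMEL, MLANA, TYR, TYRP1 and S100A1 were below it on every array and S100B reached it only with vemurafenib at 16 h. Of 9 measured markers of other cell types only COL1A1 was at the floor. Among known output genes of the pathway, the ERK phosphatase gene DUSP6 fell by 5.23 at 6 h and by 5.22 at 16 h of vemurafenib on the probe set used, and SPRY2, a feedback inhibitor, fell by 4.06 at 6 h and had a difference of -3.98 at 16 h. The vemurafenib arrays of both genes were below the floor, at 4.28 and 4.38 for DUSP6, where background can limit the size of a difference, and the other DUSP6 probe sets gave -6.65 to -7.48. Of 11 ERK output genes at the floor 10 fell at 6 h and all 11 at 16 h, against 2.14% and 5.79% of all genes.

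None of the 4 measurable cascade genes passed the size rule in any of the 7 comparisons. Over all genes at the floor the share over the rule was 3.18% for vemurafenib at 6 h and 11.0% at 16 h. It was 0.0224% for AT9283, 2.57% for the combination against DMSO, 0.322% for the combination against vemurafenib, 2.42% for the combination against AT9283 and 0.276% for DMSO at 16 h against 6 h. The differences of the cascade genes lay between -0.74 and 0.60. By the looser rule MAP2K1 and MAPK3 were called for vemurafenib at 16 h, when 34.1% of all genes were. MAPK3 was among the 16.0% of genes that were higher and MAP2K1 among the 18.0% that were lower. ARAF was called lower for the combination against AT9283 at 6 h, as were 5.48% of all genes, out of 8.19% called in either direction. No cascade gene was called by the looser rule for vemurafenib at 6 h (11.4% of all genes), AT9283 (0.302%), the combination against DMSO (9.09%) or vemurafenib (2.1%), or between the DMSO arrays (4.35%).

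**Figure D1:**
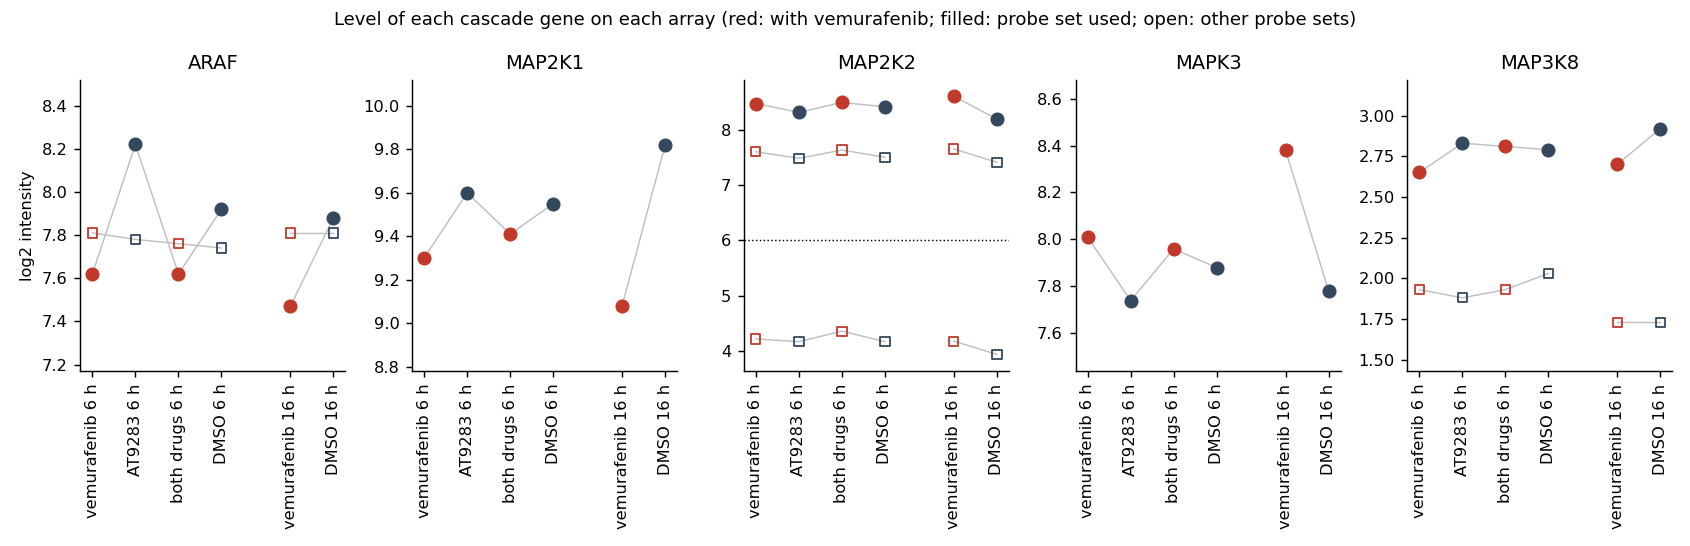
Log2 intensity (vertical axes, a different range in each panel) of the 5 measured cascade genes on each of the 6 arrays, as filled circles for the probe set used and open squares for other probe sets, with arrays of vemurafenib-treated cells in red. MAP2K1 is lower and MAP2K2 and MAPK3 are higher on all red arrays, most at 16 h, while the probe sets of ARAF differ from each other and MAP3K8 stays under log2 3. The dotted line marks the floor of log2 6 where a panel reaches it.

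ARAF, the RAF kinase measured here, was read by a pair of probe sets that gave different pictures. On probe set 230652_at, used because its mean was marginally higher (7.788 against 7.786), log2 levels were 7.62 with vemurafenib, 8.22 with AT9283, 7.62 with the combination and 7.92 with DMSO at 6 h, and 7.47 with vemurafenib and 7.88 with DMSO at 16 h. The 3 arrays with vemurafenib were all below the 3 without it, as in 12.2% of 9707 genes, and the AT9283 array was the highest. On probe set 201895_at the same arrays lay between 7.74 and 7.81. The vemurafenib difference was -0.30 at 6 h and -0.41 at 16 h on the probe set used, and 0.07 and 0.00 on the other. AT9283 alone gave 0.30 on the probe set used, a size reached by 3.27% of genes, and 0.04 on the other. A direction for ARAF therefore rests on 1 of its 2 probe sets.

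MAP2K1, which encodes MEK1, was lower with vemurafenib and most so at 16 h. Its only probe set, 202670_at, had log2 levels of 9.30 with vemurafenib, 9.60 with AT9283, 9.41 with the combination and 9.55 with DMSO at 6 h. At 16 h it had 9.08 with vemurafenib and 9.82 with DMSO. All 3 arrays with vemurafenib were below all 3 without it, as in 12.2% of genes. The vemurafenib difference was -0.25 at 6 h and -0.74 at 16 h, where the level was 0.599 of that in DMSO. Part of the larger difference at 16 h came from the DMSO arrays, since MAP2K1 in DMSO was 0.27 higher at 16 h than at 6 h. Both of these values rest on the same DMSO array at 16 h. A difference as large as that at 16 h was seen in 19.3% of 9469 genes.

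MAP2K2, which encodes the closely related kinase MEK2, ran the other way. The probe set used, 202424_at, had log2 levels of 8.47 with vemurafenib, 8.31 with AT9283, 8.49 with the combination and 8.41 with DMSO at 6 h, and of 8.60 with vemurafenib and 8.19 with DMSO at 16 h. Every array with vemurafenib was above every array without it, by a narrow margin at 6 h. The same separation was seen in 19.7% of genes. The vemurafenib difference was 0.07 at 6 h and 0.42 at 16 h, and at 16 h 41.4% of genes differed by as much. The other probe sets, 213490_s_at and 213487_at, had differences of 0.25 and 0.24 at 16 h and 0.10 and 0.05 at 6 h. On 213490_s_at the lowest array with vemurafenib was at 7.60 and the highest without it at 7.50. Probe set 213487_at lay between 3.94 and 4.36, below the floor. There the lowest array with vemurafenib was at 4.18 and the highest without it at 4.17, so no separation is read from it. For scale, the 8 housekeeping genes at the floor had a median of -0.04 at 16 h, with TBP at -0.46 and the other 7 between -0.31 and 0.23.

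MAPK3, which encodes ERK1, had a single probe set, 212046_x_at, of a type marked as able to bind related transcripts. Its log2 levels were 8.01 with vemurafenib, 7.74 with AT9283, 7.96 with the combination and 7.88 with DMSO at 6 h, and 8.38 with vemurafenib and 7.78 with DMSO at 16 h. The vemurafenib array at 16 h was the highest, and all arrays with vemurafenib were above those without it, as in 19.7% of genes. The difference was 0.13 at 6 h and 0.60 at 16 h, or 1.52-fold, a size reached by 26.9% of genes. Without probe sets of this type MAPK3 has no value in the table.

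MAP3K8 lay below the floor on every array. On the probe set used, 235421_at, intensities were 6.26 with vemurafenib, 7.13 with AT9283, 7.03 with the combination and 6.92 with DMSO at 6 h, and 6.49 with vemurafenib and 7.57 with DMSO at 16 h. Each was below the lower quartile of its own array, which ran from 7.72 to 8.11. The other probe set, 205027_s_at, lay between 3.32 and 4.09. Both were far under the floor of 64 on every array, so no difference is read from them.

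**Figure D2:**
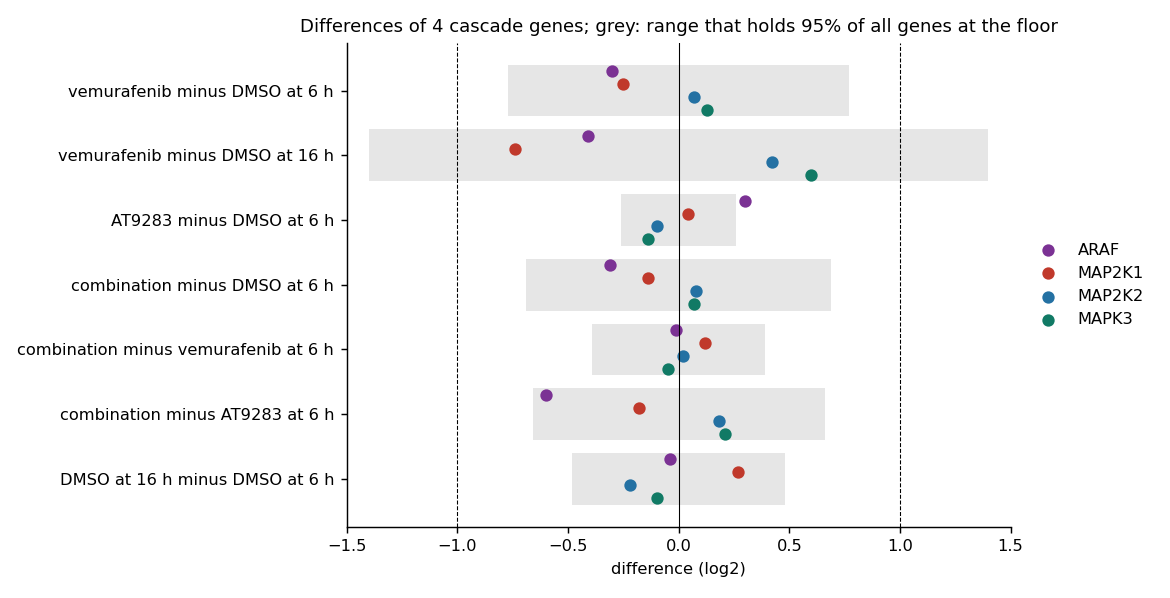
Difference on the log2 scale (horizontal axis) of ARAF, MAP2K1, MAP2K2 and MAPK3 in the 7 comparisons, with a grey bar over the range that held 95% of all genes at the floor and dashed lines at -1 and 1. Every point lies within the dashed lines, and the point outside its grey bar is ARAF for AT9283 minus DMSO at 0.30, on a probe set that the other ARAF probe set did not follow.

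The arrays with and without vemurafenib were set side by side after their values had been seen. MAP2K1 averaged 9.27 ± 0.17 with vemurafenib and 9.66 ± 0.14 without it (log2, SD, n = 3 arrays each, which differ in time and AT9283). MAP2K2 averaged 8.52 ± 0.07 with vemurafenib and 8.30 ± 0.11 without it, and MAPK3 averaged 8.12 ± 0.23 with it and 7.80 ± 0.07 without it. ARAF averaged 7.57 ± 0.09 with it and 8.01 ± 0.18 without it on the probe set used. In all 4 the groups did not overlap, which was true of 31.9% of 9707 genes, 19.7% higher and 12.2% lower with the drug.

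The vemurafenib effect was then estimated over both times with limma, fitted to the 4 vemurafenib and DMSO arrays over 9651 genes with time as a term. The fit leaves 1 residual degree of freedom, which holds the change of the effect between 6 h and 16 h and not replicate error. It called 1.17% of genes at an adjusted p under 0.05 and none of the 4 cascade genes, of which 2 (ARAF and MAP2K1) had an unadjusted p under 0.05, as did 22.2% of genes. That count was 0 with the mean over probe sets, with quantile normalization and with no trend in the prior, and 1 with no floor and without probe sets marked _x_at or _s_at. MAP2K1 had an estimate of -0.50 (SE 0.19, 95% interval -0.99 to 0.00, limma adjusted p = 0.225). ARAF had one of -0.36 (SE 0.13, interval -0.70 to -0.02, limma adjusted p = 0.216). MAPK3 was estimated at 0.37 (SE 0.17, interval -0.09 to 0.82, limma adjusted p = 0.28) and MAP2K2 at 0.24 (SE 0.16, interval -0.19 to 0.67, limma adjusted p = 0.408). The interval of MAP2K1 reaches close to a 2-fold reduction, and those of MAP2K2 and MAPK3 include 0. In a fit of all 6 arrays with main effects of both drugs and time, which called 4.77% of 9707 genes, the 4 genes had limma adjusted p-values from 0.0681 for ARAF to 0.201 for MAP2K2. This result depended on the 16 h arrays. Without the vemurafenib array at 16 h, limma called ARAF (-0.45, adjusted p = 0.0186) and MAP2K1 (-0.22, adjusted p = 0.0267), when 29.6% of 9317 genes were called. Without the DMSO array at 16 h it called the same genes (adjusted p = 0.0197 and 0.0276), when 29.4% of 9675 genes were. These fits estimate the effect from the 6 h arrays, and their 1 residual degree of freedom holds the change of the effect with AT9283 and not replicate error. Leaving out any of the other arrays gave no call among the 4 genes. The ARAF call was made on probe set 230652_at.

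Between 6 h and 16 h the vemurafenib difference moved by -0.49 in MAP2K1, 0.47 in MAPK3, 0.35 in MAP2K2 and -0.11 in ARAF. On the probe sets used each gene kept its sign at both times, and these comparisons share no array. How many of all genes kept theirs was not counted, so this does not set these genes apart. At 6 h 76.9% of genes differed by as much as MAP2K2 and 59.0% by as much as MAPK3. The other ARAF probe set had 0.07 at 6 h and 0.00 at 16 h. The change with time was not tested, since it is the residual of the fit. In DMSO, 16 h minus 6 h gave 0.27 for MAP2K1, -0.22 for MAP2K2, -0.10 for MAPK3 and -0.04 for ARAF. For the first 3 its sign was opposite to that of the vemurafenib difference, so it added to the difference at 16 h. Both differences use the same DMSO array at 16 h, with opposite signs, so they are not independent. The share of all genes with opposite signs was not counted. MAP2K2 had 8.47 with vemurafenib at 6 h and 8.60 at 16 h, against 8.41 and 8.19 in DMSO. No source used here says whether the arrays of both times were normalized in 1 run, and an effect of processing on this change was not tested.

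**Figure D3:**
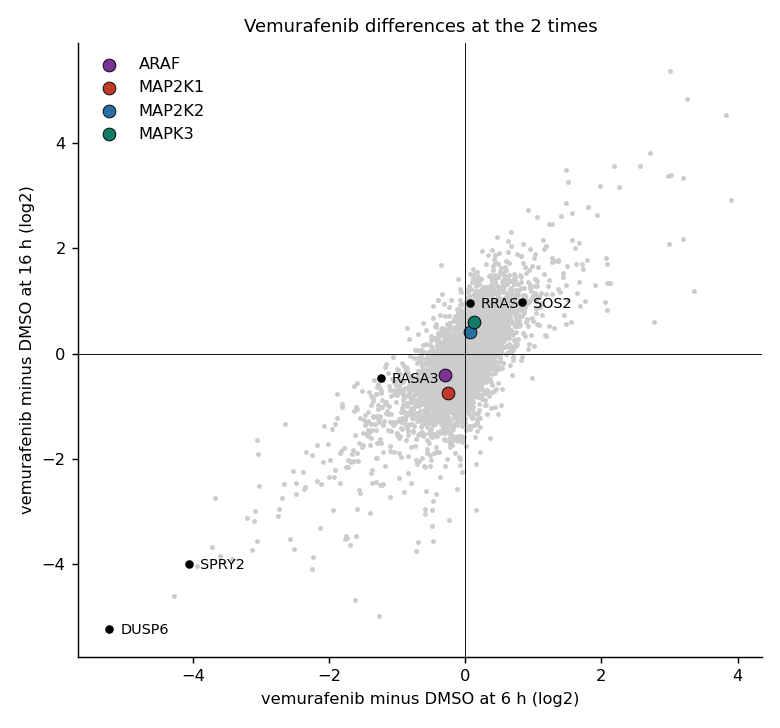
Vemurafenib minus DMSO at 6 h (horizontal axis, log2) against the same at 16 h (vertical axis, log2) for all genes at the floor in both (grey), with the 4 cascade genes as coloured circles and 5 other named genes in black. On the probe sets used, ARAF and MAP2K1 lie below 0 and MAP2K2 and MAPK3 above 0 on both axes. All lie inside the dense centre of the grey cloud and far from DUSP6 at -5.23 and -5.22. The other ARAF probe set, at 0.07 and 0.00, is not drawn.

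With AT9283 alone MAP2K1 differed from DMSO by 0.04, MAP2K2 by -0.10 and MAPK3 by -0.14, and over 8938 genes the SD of this difference was 0.13. A size as large was reached by 36.7% of genes for MAP2K2 and 22.3% for MAPK3. For vemurafenib minus DMSO at 6 h these shares were 76.9% and 59.0%. ARAF differed by 0.30 on the probe set used and by 0.04 on the other. The combination minus vemurafenib gave 0.12 for MAP2K1, 0.02 for MAP2K2, -0.05 for MAPK3 and -0.01 for ARAF, where all genes had an SD of 0.20. The combination minus AT9283 gives the vemurafenib effect in the presence of AT9283 and shares no array with vemurafenib minus DMSO. It was -0.18 for MAP2K1, 0.18 for MAP2K2 and 0.21 for MAPK3, against -0.25, 0.07 and 0.13 without AT9283. The signs were the same in each, but the share of all genes with the same sign in both was not counted. For ARAF the combination minus AT9283 was -0.60, against -0.30 without AT9283, on the probe set that had been highest with AT9283. On the other probe set it was -0.03 against 0.07. With the combination set against DMSO, ARAF differed by -0.31, MAP2K1 by -0.14, MAP2K2 by 0.08 and MAPK3 by 0.07.

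Of 4 measured relatives of the cascade genes, 1 rose at 16 h and none fell, where 11.0% of all genes passed the size rule. MRAS, a RAS-like GTPase that works with the SHOC2 phosphatase to activate RAF, rose to 6.83 with vemurafenib at 16 h, against 5.35 in DMSO, a difference of 1.48. At 6 h it had 5.74 with vemurafenib and 5.54 with DMSO, and its other probe set differed by 0.34 at 16 h with a mean of 4.51. RRAS, a RAS-related GTPase, had 8.06 with vemurafenib and 7.09 with DMSO at 16 h, a difference of 0.97 that stayed just under the size rule. HRAS had a difference of -0.36 and RRAS2 of -0.46 at 16 h.

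Upstream of RAF, the factors that load RAS with GTP and those that turn it off were measured next. Among 8 genes of RAS activation at the floor, none rose or fell at either time, where 3.18% of all genes did at 6 h and 11.0% at 16 h, with medians of 0.10 at 6 h and 0.08 at 16 h, against 0.02 and 0.00 for all genes. The exchange factor SOS2 came nearest, at 0.83 and 0.97, but SOS2 also differed by 0.70 between the DMSO arrays at 16 h and 6 h. Its combination minus AT9283 at 6 h was 0.25. The other SOS2 probe sets, with means below the floor, had -0.02 to 0.40 at 6 h and -0.32 to 1.09 at 16 h. PPP1CB, the catalytic subunit of the SHOC2 complex, had 0.62 at 16 h. RASGRP1, another exchange factor, had 0.83 at 16 h below the floor. Among 4 genes of RAS inactivation at the floor, 1 fell at 6 h, where 2.14% of all genes did. None rose at 6 h, and none passed the size rule at 16 h, where 11.0% of all genes did. RASA3, a GTPase activating protein, fell to 6.38 with vemurafenib at 6 h, against 7.63 in DMSO, a difference of -1.24. At 16 h it had 6.62 with vemurafenib and 7.08 with DMSO, a difference of -0.46, as its level in DMSO was 0.55 lower at 16 h. The other RASA3 probe sets, with means below the floor, had -0.40 and -0.74 at 6 h, under the size rule, and -0.04 and -0.12 at 16 h. RASA2, of the same family, had -0.62 at 6 h and -0.51 at 16 h. Its other probe sets, with means below the floor, had -0.52 and -0.55 at 6 h and 0.07 and -0.16 at 16 h. LZTR1, an adaptor for RAS degradation, had 0.33 at 16 h.

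Of 17 scaffolds and RAF regulators at the floor, 1 fell at 16 h and none rose, where 5.79% of all genes fell, and the median was -0.02. CNKSR2, a scaffold of the RAF complex, fell to 4.96 with vemurafenib at 16 h, against 6.34 in DMSO, a difference of -1.38, and its difference at 6 h was -0.75. A second probe set of CNKSR2, with a mean of 3.96, had -0.39 at 16 h. The 14-3-3 gene YWHAH, whose product binds phosphorylated RAF, had -0.78 at 16 h, and the scaffold gene WDR83 had 0.59. Partners of the MAP3K8 product were measurable although MAP3K8 was not. The kinase gene CHUK had -0.90 at 16 h and NFKB1, whose precursor protein holds COT inactive, had -0.57, while TNIP2 had -0.14 and IKBKB 0.04. None of these 4 passed the size rule at 16 h, against 11.0% of all genes. By the looser rule 2 were lower, as were 18.0% of all genes.

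Of 6 kinases downstream of ERK at the floor at 16 h none passed the size rule, against 11.0% of all genes. MKNK2 had a difference of 0.82 and MKNK1 of 0.30, both kinases of the initiation factor eIF4E, and RPS6KA5, which encodes MSK1, had -0.77. RPS6KA5 also had -0.73 for the combination against vemurafenib at 6 h, with both arrays below the floor. In the parallel cascades none of 20 genes at the floor at 16 h passed the rule, against the same 11.0%. With so few genes in each list, these counts do not set the lists apart from all genes. The largest was MAP3K12 at 0.87, where its other probe sets had 0.68 and 0.10. MAP3K9 had differences of -2.23 at 6 h and -2.21 at 16 h, but its highest array was at 5.96, just below the floor, and its other probe set had -0.03 and -0.17. MAPK13, a p38 kinase, had -0.94 at 16 h below the floor.

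**Figure D4:**
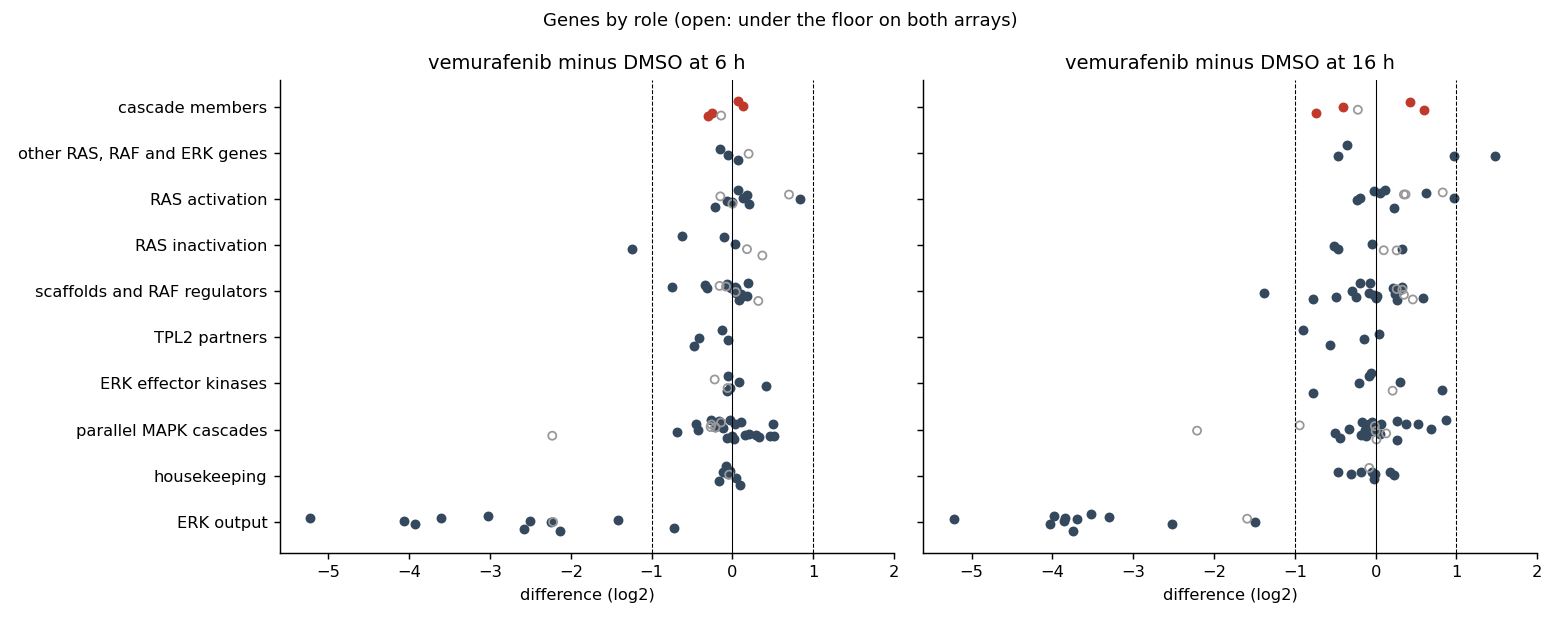
Vemurafenib minus DMSO on the log2 scale (horizontal axes) at 6 h (left) and 16 h (right) for the genes of each role, one point per gene, with open points for genes under the floor on both arrays and dashed lines at -1 and 1. The cascade genes, in red, stay within -0.74 and 0.60, while the ERK output genes extend to -5.23 at 6 h and -5.22 at 16 h.

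The shape of a gene's profile over the 6 arrays, centred on its own mean, was used to find its nearest neighbours among 8885 genes with a mean of log2 6 or more. On the probe set used ARAF had the largest range of the cascade genes, 0.752, whereas its other probe set had the smallest range of those at the floor, 0.07. The 5 genes nearest to it were LRP12 at a distance of 0.12, RAP1GAP2 at 0.14, PTPN14 at 0.17, and FERRY3 and USP12 at 0.18 each. For MAP2K1, looked up after its values were seen, the nearest were VCL at 0.11, IKBIP at 0.12 and SCFD2 at 0.13. For MAPK3, likewise, the nearest was GSTK1 at 0.06. Among the cascade genes MAP2K2 and MAPK3 were nearest to each other at 0.28 and ARAF and MAP2K1 at 0.42, while MAP2K1 and MAPK3 were 1.07 apart. The ARAF values rest on probe set 230652_at, and the 5 genes nearest to the other probe set shared 0 with those above. On that probe set the distance to MAP2K1 was 0.59 and to MAP2K2 0.34. These distances describe 6 arrays and do not speak to shared function.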

How the data were processed

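The authors deposited a linear intensity per probe set for 6 arrays, and per the submitters' processing notes RMA was used. No source used here gives its version or says whether all arrays were normalized in 1 run. Of 54675 probe sets, 41097 named 1 gene, 1801 named several and 11777 were not listed in the annotation. In 1118 probe sets the 6 h values appeared to be shifted to other rows (r of the DMSO arrays 0.455, against 0.992 elsewhere), and these were left out with 62 control probe sets. None of them named a cascade gene. Values were converted to log2, and for each gene the probe set with the highest mean was used. Groups came from the labels, with no replicate numbers. The vemurafenib effect was fitted with limma 3.58.1 in R 4.3.3, with a trended prior and Benjamini-Hochberg adjustment over all genes with at least 1 of the arrays in the fit at log2 6. Steps were tested on simulated arrays, with planted changes larger than any difference of the cascade genes and equal at both times. The test therefore does not bear on the limma results for these genes.

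The members and gene lists were chosen with earlier results of these data known. Named genes are all members and their measured relatives, and from each role list the genes over the size rule and the 3 with the largest vemurafenib difference at 16 h. Of the ERK output list DUSP6 and SPRY2 are named, and not every gene over the rule is printed. IKBKB is also named, as the remaining partner of the MAP3K8 product. The comparison of arrays with and without vemurafenib was added after seeing the data. Alternatives for the probe set, normalization, background offset, floor, control and left-out rows were run, and each array was left out of the fit of 6 arrays.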

Additional observations from a re-analysis of the deposited data

How the results depend on the processing

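None of the measured cascade genes passed the size rule in any of the 7 comparisons under any alternative run. Limma called none of them except when a 16 h array was left out of the fit of 6 arrays. Over the fits that left out each array in turn, the count of cascade genes called was 0 to 2 (ARAF and MAP2K1 without either 16 h array), with the lowest adjusted p between 0.0186 and 0.275. Of 223 single differences recomputed, 217 moved by less than 0.24, the SD of the difference between the DMSO arrays, and all 6 that moved by more were of ARAF. Many of the 223 could not move. The left-out rows name no cascade gene, MAP2K1 and MAPK3 have 1 probe set each, and dropping the marked probe sets left the probe sets used for the remaining genes unchanged. The count also holds MAP3K8, below the floor, so it is a weak check. With quantile normalization, which moved ARAF to its other probe set, its vemurafenib difference was 0.08 at 6 h and 0.07 at 16 h, against -0.30 and -0.41. By the looser rule the count for vemurafenib at 16 h was 1 in place of 2 without probe sets marked _x_at or _s_at, which removed MAPK3, and 3 with quantile normalization, which added MAP2K2. For the combination minus AT9283 it was 0 in place of 1 with the mean over all probe sets and with quantile normalization. Over all alternatives run MAP2K1 stayed between -0.77 and -0.60 at 16 h, MAPK3 between 0.55 and 0.69 and MAP2K2 between 0.30 and 0.50. With quantile normalization the arrays with and without vemurafenib did not overlap in 3 of 4 cascade genes, the exception being ARAF. Without the marked probe sets they did not overlap in 3 of 3. In the main setting this held for 31.9% of all genes. The share of all genes under the other settings was not counted, for the overlap or for the looser rule. Leaving out a single array cannot make separate groups overlap, so it is no check on the overlap. Over all genes the limma calls numbered 113, and were 32 with the mean over probe sets, 66 without the marked probe sets, 173 with quantile normalization, 43 with no trend in the prior, 463 with all 6 arrays, and between 22 and 2847 with an array left out of these, the highest without a 16 h array. The alternatives for the looser rule, for the overlap of arrays and for the left-out arrays were chosen after seeing the data. No paired analysis was possible because the labels carry no replicate numbers, other than by time, which the limma fit of 4 arrays already holds as a term. Leaving an array out of that fit leaves no residual degree of freedom. Signal over background sets the limit for MAP3K8.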
